A study of Mus musculus with 10 samples.

Results

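This account covers 10 genes of the core of transforming growth factor beta (TGF-beta) signalling in the mouse spinal cord, found in the table by their symbols. The 3 ligands are *Tgfb1*, *Tgfb2* and *Tgfb3*, the 2 receptors are *Tgfbr1* and *Tgfbr2*, the 3 Smads are *Smad2*, *Smad3* and *Smad7*, and the 2 latency proteins are *Nrros* and *Ltbp1*. All 10 were found among the 25232 genes of the authors' table.

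RNA of the spinal cord was sequenced from 5 WT and 5 SOD1 G93A female mice, all 90 days old and of the C57BL/6 strain. The SOD1 G93A mice carry many copies of a human *SOD1* transgene with a mutation of familial ALS, a motor neuron disease, in addition to their own mouse *Sod1*, and the WT mice were their littermates. The methods of the study name the lumbar region, which the sample labels do not. The value used for each gene is the base mean, in which the authors scaled each library's count by a size factor and averaged all libraries.

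A base mean merges both genotypes into 1 value for each gene, so it carries no error between mice, and it is neither a WT level nor a SOD1 G93A level. Values of single libraries and their depths were not analysed here, and the authors' own fold changes and p-values were left out, so no difference between SOD1 G93A and WT mice is given for any gene. Every comparison below is therefore between genes, with no test. A difference in level between genes was read only per kilobase of exon, since a longer transcript yields more reads. In whole tissue, fewer cells of a type and less RNA per cell cannot be told apart.

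TGF-beta ligands are made as precursors whose prodomain stays wrapped around the growth factor and keeps it latent. A partner protein holds this latent complex. In the extracellular matrix some of the latent TGF-beta binding proteins (LTBPs) do so, and on a cell surface NRROS and LRRC32 do so. Integrins that contain the alpha V chain can release the growth factor by binding the prodomain. The free ligand brings together the type II receptor TGFBR2 and the type I receptor TGFBR1, which phosphorylates SMAD2 and SMAD3. These join SMAD4 and enter the nucleus, while SMAD7 is an inhibitor that the pathway itself induces. In the central nervous system the pathway is known for keeping microglia, the resident macrophages, in their homeostatic state, and NRROS is the anchor that microglia use.

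The prodomains of the ligands differ at the site where integrins bind, the tripeptide arginine, glycine and aspartate (RGD). The stretch is shown because it separates the 3 ligands by a route of activation, and because their levels are compared next. The 45 bases around the site were read from the GENCODE M21 transcripts on GRCm38, 5′ to 3′ on the coding strand. Capitals mark the codons of RGD or, in *Tgfb2*, the 9 bases that a protein alignment placed opposite those of *Tgfb3*.
Tgfb1: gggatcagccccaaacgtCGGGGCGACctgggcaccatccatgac
Tgfb2: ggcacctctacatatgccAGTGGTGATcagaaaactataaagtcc
Tgfb3: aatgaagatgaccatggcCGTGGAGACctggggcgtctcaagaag

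The codons searched in frame were CGN, AGA or AGG, followed by GGN and then by GAC or GAT. They occurred once in the coding sequence of *Tgfb1*, from codon 244, and once in that of *Tgfb3*, from codon 261. No match was found in the coding sequence of *Tgfb2*, where a serine codon stood at the place of the arginine. Of 17480 coding sequences of detected genes, 1459 (8.35%) held at least 1 such match, so a match alone does not mark an integrin ligand. The stretch lies in exons 4 and 5 of *Tgfb1* at chr7:25696995-25697168 on the plus strand, with an intron inside it. In *Tgfb2* it lies in exon 5 at chr1:186630735-186630779, and in *Tgfb3* in exon 5 at chr12:86062147-86062191, both on the minus strand of GRCm38.

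The 10 genes were measured at intermediate levels. Their base means lay between 133 and 949, where the median of the 20973 detected genes, those with a base mean above 0, was 247. By base mean, 8 of the 10 were above this median, and 0 exceeded the 75th percentile, which lay at 1007. Per kilobase of exon the levels ran from 35.8 to 217, a 6.05-fold range, around a median of 94.0 over the 19924 detected genes with a length. By this measure 5 of the 10 were above the median, and 0 exceeded the 75th percentile, which lay at 320. The count above the median was 7 with the longest coding sequence or the exons of all transcripts as length, 2 when detection required a base mean of 10 or more, and 8 when genes at 0 were included. *Smad7*, *Tgfb3*, *Tgfbr1*, *Smad3* and *Smad2*, in this order, were the 5 above it. *Tgfbr2*, *Tgfb2*, *Tgfb1*, *Ltbp1* and *Nrros* followed below it.

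**Figure D1:**
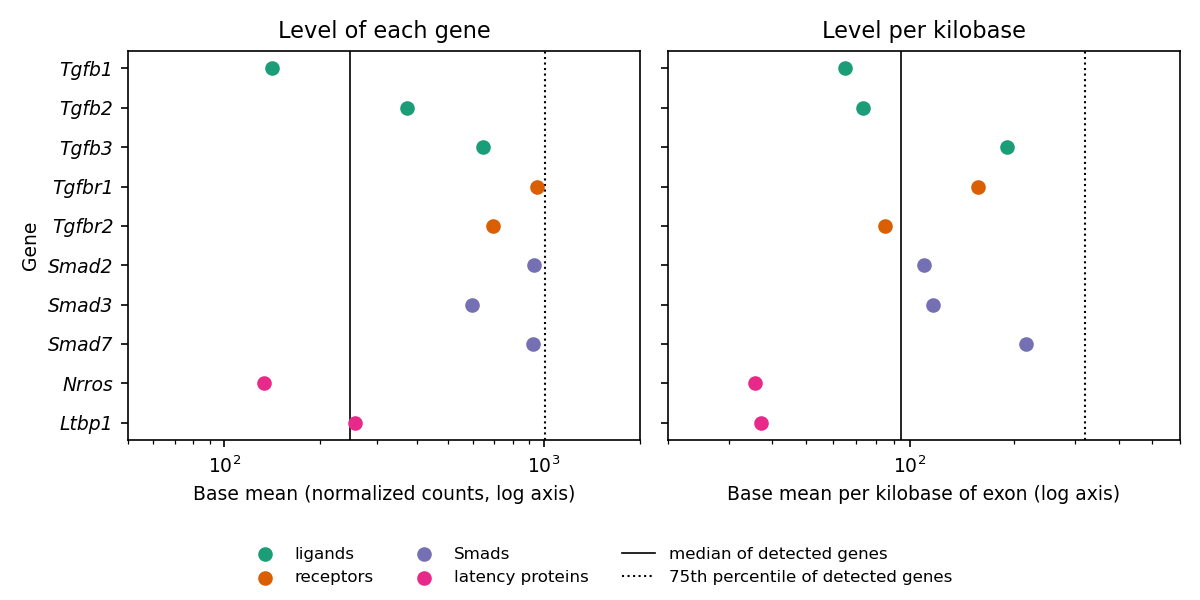
Authors' base mean of the 10 genes (left, normalized counts, log axis) and the same value per kilobase of exon (right, log axis), 1 point for each gene, coloured by role and without error bars because each value pools all libraries. Solid and dotted lines mark the median and the 75th percentile of detected genes. The 2 latency proteins were lowest per kilobase, and 0 of the 10 genes passed the dotted line in either panel.

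Among the ligands, *Tgfb3* had the highest level per kilobase. *Tgfb3* spans 86056745 to 86079041 of chromosome 12 (GRCm38, as for all positions given here). It had a base mean of 646 and 191 normalized counts per kilobase, at percentile 63.6 of detected genes. *Tgfb2*, on chromosome 1 from 186622792 to 186705989, had a base mean of 374 and 73.0 per kilobase, at percentile 46.0. *Tgfb1*, on chromosome 7 from 25687002 to 25705077, had a base mean of 141 and 65.1 per kilobase, at percentile 44.6. *Tgfb1* is the ligand best known from immune cells and the one that NRROS holds on microglia. Per kilobase, *Tgfb3* was thus 2.94 times as high as *Tgfb1* and 2.61 times as high as *Tgfb2*, and it made up 58.0% of the summed level of the 3 ligands. The ratio of *Tgfb3* to *Tgfb1* rose to 6.80 with the exons of all transcripts and to 4.32 with the longest coding sequence. Its first place among them held under each of the 4 ways of taking a gene's length, with a share between 56.5% and 67.3%. *Tgfb2* and *Tgfb1* lay close together on the main length, at a ratio of 1.12, and further apart on the longest coding sequences, at 2.33. The ligand without a match to the RGD codons was therefore the middle one of the 3, with 22.2% of their summed level.

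Exons of *Tgfb3* share 257 bases (7.60% of its exon length) with *Gm48008* and 163 bases with *Gm37804*. Both lie on the opposite strand, and neither is annotated as protein-coding. *Tgfb2* shares 124 bases (2.14%) with *Gm29491*, also on the opposite strand. None of these opposite-strand genes has an entry in the authors' table. The libraries were stranded, but the strand setting of the counting is not given in the sources used here, so reads of these overlaps could have been counted with the ligands. The other 8 genes share no exonic base with another GENCODE gene.

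The type I receptor was higher per kilobase than the type II receptor. *Tgfbr1*, which encodes the kinase that phosphorylates the Smads, lies on chromosome 4 from 47353222 to 47414931 and had the highest base mean of the 10 genes, 949. This came to 157 per kilobase over 6.03 kb of exon, at percentile 59.6. *Tgfbr2*, which encodes the receptor that binds the ligand and activates TGFBR1, lies on chromosome 9 from 116084293 to 116175360. It had a base mean of 694 and, over 8.19 kb of exon, 84.8 per kilobase, at percentile 48.3. *Tgfbr1* was 1.86 times as high as *Tgfbr2* per kilobase, and between 1.61 and 1.92 times under the other lengths. The co-receptor gene *Tgfbr3* (betaglycan), which presents TGF-beta 2 in particular, was measured at 87.7 per kilobase, 1.03 times the level of *Tgfbr2*. This ratio was 0.962 with the exons of all transcripts and 0.536 with the longest coding sequence, so no order between *Tgfbr3* and *Tgfbr2* can be given. The endothelial type I receptor gene *Acvrl1* was at 109 per kilobase, and *Tgfbr1* was 1.44 times as high, or 2.33 times with the longest coding sequence.

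*Smad2* and *Smad3*, the Smads that the receptors activate, had nearly the same level per kilobase. *Smad2*, on chromosome 18, had a base mean of 931 and 110 per kilobase, at percentile 52.7. *Smad3*, on chromosome 9 from 63646767 to 63757994, had a base mean of 595 and 117 per kilobase, at percentile 53.7. The ratio of *Smad3* to *Smad2* was 1.06, and it fell below 1, to 0.702, when the longest coding sequence was taken as the length, so no order between the 2 genes can be given. The shared partner *Smad4* was higher than both, at 402 per kilobase and percentile 79.6. It was 3.66 times as high as *Smad2* and 3.44 times as high as *Smad3*, and 1.24 and 1.76 times with the longest coding sequence.

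The inhibitor *Smad7* had the highest level per kilobase of the 10 genes, and kept that rank under each of the 4 lengths. Also on chromosome 18, it had a base mean of 927 and 217 per kilobase, at percentile 66.5. It was 1.97 times as high as *Smad2* and 1.86 times as high as *Smad3* per kilobase, and 1.09 and 1.56 times with the longest coding sequence. *Smad6*, the other inhibitory Smad, which acts mainly on the BMP branch, was at 15.9 per kilobase, so that *Smad7* was 13.6 times as high, or 22.8 times with the longest coding sequence. Among all 8 Smads, *Smad4* gave 27.7% of the summed level per kilobase, *Smad9* 16.1% and *Smad7* 14.97%. *Smad2* gave 7.58% and *Smad3* 8.07%. This order depended on the length, since with the longest coding sequence *Smad9* gave 19.3%, *Smad5* 19.2%, *Smad4* 16.4%, *Smad7* 14.5%, *Smad2* 13.3% and *Smad3* 9.30%.

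The latency proteins were the 2 lowest of the 10 genes per kilobase. *Nrros*, on chromosome 16 from 32142785 to 32165594, had a base mean of 133 and 35.8 per kilobase, at percentile 37.0. *Ltbp1*, on chromosome 17 from 75005568 to 75392512, had a base mean of 257 and 37.2 per kilobase, at percentile 37.4. No order of this pair can be given, since the ratio of *Nrros* to *Ltbp1* was 0.963 on the main length and 1.32 with the exons of all transcripts, where *Tgfb1* at 28.1 per kilobase also fell below *Nrros* at 31.8. In the curated form with the most exons, *Ltbp1* has 34 exons and *Nrros* has 4.

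**Figure D2:**
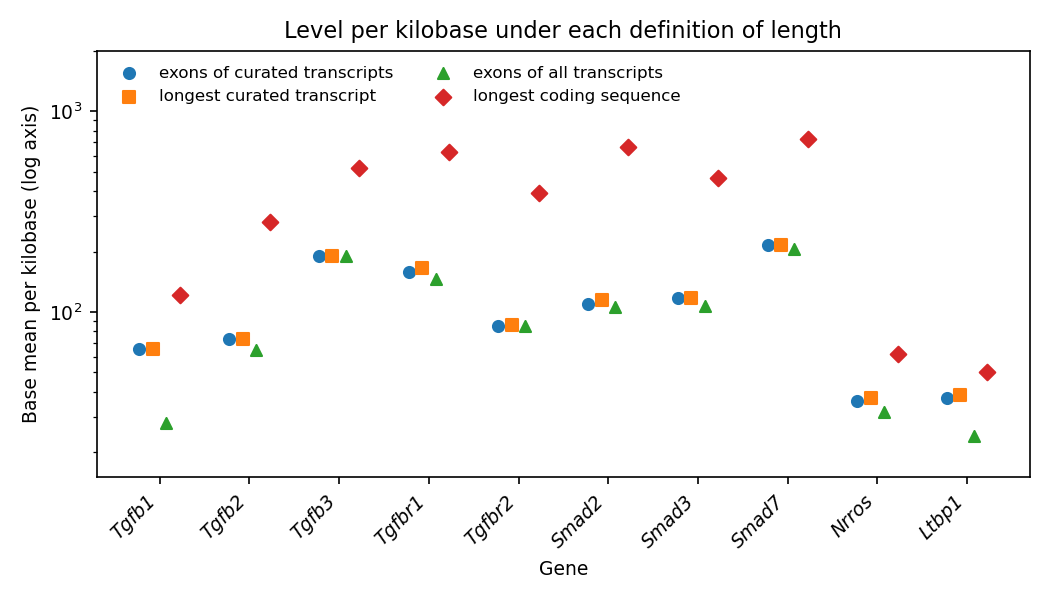
Base mean per kilobase (log axis) of the 10 genes under 4 definitions of a gene's length, 1 marker for each definition. *Smad7* stayed highest and *Tgfb2*, *Tgfbr1* and *Tgfbr2* kept their ranks (7, 3 and 6 of 10), while *Smad2* moved between ranks 2 and 5.

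Each latency protein was read against genes related to it, and whether these can take its place was not tested. Of the 4 LTBP genes, *Ltbp3* had the highest level per kilobase, 516, and *Ltbp4* followed at 227, while *Ltbp2* was nearly absent at 1.49. *Ltbp3* gave 66.0% of the summed level of the 4, *Ltbp4* 29.0%, *Ltbp1* 4.76% and *Ltbp2* 0.190%. *Ltbp3* was 13.9 times as high as *Ltbp1* and *Ltbp4* 6.10 times. *Lrrc32* (GARP), the surface anchor known from regulatory T cells, platelets and endothelium, was at 23.0 per kilobase, and *Nrros* was 1.56 times as high. The ratio of *Nrros* to *Lrrc32* was between 1.39 and 1.70 under the other lengths.

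*Nrros* was also set beside genes that mark microglia. All 8 microglial markers were above the median of detected genes per kilobase, with *Olfml3* lowest at 123, and *Nrros* was below each of them. *Tmem119* was 5.97 times (9.30 times with the longest coding sequence), *P2ry12* 7.10 times and *Csf1r*, the receptor that microglia need to survive, 21.9 times as high as *Nrros*. *Sall1*, a transcription factor of microglia that is known to depend on TGF-beta, was at 253 per kilobase.

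Integrin chains that can release latent TGF-beta were detected, an epithelial one at a trace level. *Itgav*, the alpha V chain, was at 354 per kilobase (percentile 77.0), and *Itgb8*, its partner on glia, at 159 (percentile 59.7). The broadly expressed beta chains *Itgb1* and *Itgb5* were the highest genes of the latency and activation group, at 644 and 550 per kilobase. *Itgb6*, the beta chain of epithelia, was lowest at 0.306, with a base mean of 1.58. Of the 12 genes in this group, 7 were above the median of detected genes.

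The wider pathway was described by 75 further listed genes in 7 groups. These hold ligands, receptors and Smads of the superfamily, and also genes of activation, antagonists, regulators and target genes. Per kilobase, 43 of the 75 were above the median of detected genes and 15 were above the 75th percentile, against 5 and 0 of the 10 core genes. The groups differed in their level. The median percentile was 71.2 for the 12 regulators in the cell and 69.8 for the 10 known target genes, and it was 33.5 for the 16 other ligands and 32.9 for the 8 antagonists. The 12 other receptors had a median percentile of 58.1 and the 5 other Smads one of 63.2. Such values describe RNA in whole tissue and not the activity of the pathway.

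**Figure D3:**
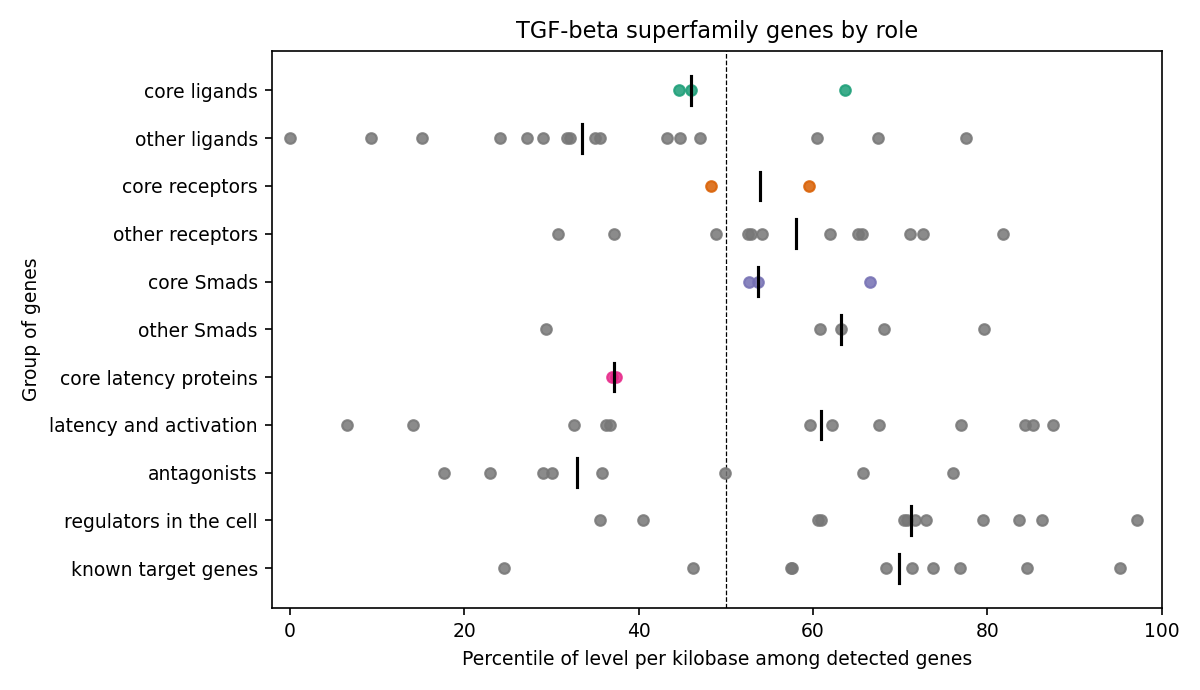
Percentile of the level per kilobase among detected genes (horizontal axis) for core genes (coloured) and further listed genes of the wider pathway (grey). Genes are grouped by role, 1 point for each gene with a black bar at the group's median. Ligands and antagonists lay mostly below the dashed line at percentile 50, and receptors, Smads, regulators and target genes mostly above it; both latency proteins among the core genes were below it.

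Among the other ligands, 3 of 16 were above the median of detected genes. They were *Inha*, the alpha subunit of inhibin, at 364 per kilobase, *Gdf11*, a ligand that signals through SMAD2 and SMAD3, at 226, and *Inhba*, the activin A subunit, at 164. *Tgfb3* was thus lower than *Gdf11* and higher than *Inhba* per kilobase. The level of *Inhba* depends on the length, since its exons cover 1529 bases in the curated transcript and 6390 bases in all transcripts. *Gdf1* was listed at 0. Of the other receptors, *Acvr1b*, the activin type I receptor that also phosphorylates SMAD2 and SMAD3, was highest at 448, followed by the BMP type II receptor *Bmpr2* at 288, and *Acvr1c* was lowest at 18.7.

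Of the regulators inside the cell, *Fkbp1a*, whose product FKBP12 binds the type I receptor and keeps it inactive, was highest at 2131 per kilobase. *Zfyve9* (SARA), which brings SMAD2 and SMAD3 to the receptor, followed at 585, and the corepressor gene *Tgif1* was lowest at 31.3. The place of *Zfyve9* depends on the length, and *Ppm1a* was above it with the longest coding sequence. Their base means were 3779 for *Zfyve9* and 3795 for *Ppm1a*, over 4191 and 1146 coding bases. Among the antagonists outside the cell, *Dcn* (decorin) was highest at 338 while *Fst* (follistatin) was lowest at 2.83. Of the known target genes, *Id2* and *Id3* were highest at 1394 and 526 per kilobase. These target genes respond to other signals as well, and *Dcn* also marks fibroblasts.

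The labelled tissue was checked against its markers. Hox genes of the caudal neural tube were detected, and 2 of the 5 listed were above the median of detected genes per kilobase. These were *Hoxc8* at 727 and *Hoxc10* at 256, while *Hoxd10* at 83.6, *Hoxa10* at 74.9 and *Hoxc9* at 67.9 were below it. The forebrain gene *Emx1* had a base mean of 0.993. *Neurod6*, also taken as a forebrain marker, went the other way, with a base mean of 78.9 and 36.7 per kilobase, about the level of *Nrros*. Markers of oligodendrocytes ran from 3138 to 47739 per kilobase, those of astrocytes from 637 to 13824 and those of neurons from 711 to 26432. On the main length all were above the 10 core genes. With the longest coding sequence *Aldh1l1*, the lowest astrocyte marker, fell slightly below *Smad7*. Of the 4 motor neuron genes, *Slc5a7* at 447 and *Chat* at 257 per kilobase were above the median of detected genes, and the transcription factor genes *Isl1* at 18.1 and *Mnx1* at 16.6 were below it. Transcripts of skeletal muscle (*Acta1* at 174 per kilobase) were detected too, and their part in the levels above was not tested. Mouse *Sod1* had a base mean of 3849, and whether reads of the human transgene were counted with it was not tested. No separate gene was listed for the transgene, and the base mean pools both genotypes, so the genotypes could not be checked.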

How the data were processed

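Spinal cord RNA of 5 WT and 5 SOD1 G93A mice was sequenced, with groups taken from the sample labels. According to the methods and the submitters' processing notes, the authors filtered reads with Fastp, aligned them to mm10 with HISAT2 2.1.0, assigned the uniquely mapped reads to genes with featureCounts 2.0.2 and normalized them with DESeq2. The annotation and strand setting are not given in the sources used here. The base mean, a signal that the authors averaged over all libraries, was used as deposited. The same table holds the authors' log2 fold change, standard error, Wald statistic and p-values, which were not used.

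Symbols were matched to GENCODE M21 (GRCm38, the build mm10 denotes); 24310 of 25232 found a single gene. A gene's length was the union of exons of its transcripts paired with a curated RefSeq record, which 95.0% of detected genes had. Coding sequences were read from GENCODE transcripts. The RGD search was added after the data were seen. The alternatives were 3 other lengths, a base mean of at least 10, and no filter. The core genes and lists were chosen with earlier results of these data known. Named genes are the 10 core genes, the 2 highest and the lowest gene of each group, and partners listed beforehand by name; any other gene was picked with its value known. Some genes that this rule covers are not reported here. The percentile computation was tested on simulated data. Python 3.11.15, numpy 2.4.6, pandas 2.3.3 and matplotlib 3.10.9 were used.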

Additional observations from a re-analysis of the deposited data

How the results depend on the processing

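Of the 10 core genes, 5 were above the median per kilobase; the number was 2 when detection required a base mean of 10 or more, and 8 when genes at 0 were included. By base mean, 3 of them exceeded the 75th percentile when genes at 0 were included, against 0 otherwise. In both cases the medians moved and the levels did not. The number above the median was 7 with the longest coding sequence and 7 with the exons of all transcripts, and 42 and 45 of the 75 further genes were above it, against 43. With the longest coding sequence 5 of the 10 core genes changed rank, with the exons of all transcripts 3 did, and with the longest curated transcript 0 did. The ratios that turned or moved by over 1.5 times with the length are given beside their values. No paired analysis was possible because the value used pools both genotypes; for the same reason no replicate could be left out. The missing depth per library and spread between mice limit every value.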

Other observations

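Some genes were listed at 0 where related genes were not. Of the 3 genes taken as blood markers, the haemoglobin genes *Hbb-bs* and *Hba-a1* were listed at 0, while *Alas2*, the haem synthesis enzyme of red blood cells, had a base mean of 137. *Gdf1* was the 1 gene of the 75 further genes of the wider pathway that was listed at 0. For these 3 genes no level is given.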
